A study of Mus musculus with 18 samples.

Results

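The 10 genes described here encode enzymes of the pentose phosphate pathway and of the supply of NADPH in mouse liver: G6pdx, H6pd, Pgls, Pgd, Rpia, Tkt, Taldo1, Idh1, Nadk and Nnt. They were taken by symbol, as 10 of the 52230 genes with a transcript in the deposited tables. All 10 were among the 10938 genes with at least 10 estimated counts in at least 4 libraries, the genes that were tested. Liver RNA was sequenced from 18 mice of the knock-in line GCKR-P446L-EMI-B6N, which carries in every cell either the proline (Gckr-446P, PP) or the leucine form (Gckr-446L, LL) of the glucokinase regulatory protein, GKRP. The groups were male PP (n = 4, 9 to 14 weeks old), male LL (n = 4, 13 to 14 weeks), female PP (n = 5, 9 to 14 weeks) and female LL (n = 5, 11 to 14 weeks), all on standard chow. These ages are from the sample labels, whereas the study's design text gives 14 weeks for all mice. By the labels the 3 mice aged 9 weeks were all PP. The labels do not say which mice shared a litter or cage, and the tests treat the mice as independent. Shared litters or cages could make the p-values too small.

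The pentose phosphate pathway takes glucose 6-phosphate, the product of glucokinase, and has an oxidative branch that makes NADPH and a non-oxidative branch that exchanges sugar phosphates with glycolysis. NADPH is the reductant for fatty acid and cholesterol synthesis and for keeping glutathione reduced, and liver also makes it with cytosolic isocitrate dehydrogenase and malic enzyme. GKRP holds glucokinase inactive in the hepatocyte nucleus, so the comparison of LL with PP asks whether the enzymes downstream of glucokinase differ in transcript level.

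The libraries held 3794671 to 6613905 estimated counts. Counts of Gckr itself cannot check the genotype, which is a change of 1 residue, and averaged 518 normalized counts in the male PP livers and 478 in the male LL livers. Summed hepatocyte markers were far above those of other cell types in every library, at 520276 to 626322 normalized counts in male PP and 812144 to 922076 in female PP. Major urinary protein (Mup) transcripts took 25.8% ± 3.77 (SD, n = 4) of counts in male PP, 15.3% ± 3.26 (n = 4) in male LL, 3.81% ± 1.97 (n = 5) in female PP and 3.19% ± 1.04 (n = 5) in female LL. In bulk liver, fewer cells of a type and less RNA per cell cannot be told apart.

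Per length, on the TPM scale, which divides counts by transcript length and scales each library to one total, Idh1 had the highest mean level at 180 and was above every other enzyme in 18 of 18 libraries. Nadk (49.2), Taldo1 (46.4), Tkt (38.2) and H6pd (34.8) followed. Nadk was above Taldo1 in only 8 of 18 libraries, Taldo1 above Tkt in 14 and Tkt above H6pd in 12. The order of the means turned with the group, since mean Nadk TPM in the male PP livers was 23.5, below H6pd (36.1), Taldo1 (34.5) and Tkt (27.7), and in the female PP livers 69.1, above Taldo1 (60.1), H6pd (43.3) and Tkt (41.1). H6pd spread widely, at 18.2 to 57.0 in male PP and 30.5 to 83.0 in female PP. Its short transcript H6pd-204 (650 bases) had counts only in male PP replicate 4 and female PP replicate 5. That transcript took 0.81% of H6pd counts but 10.58% of H6pd TPM. Pgls had a mean TPM of 21.3, Nnt of 15.2 and Pgd of 7.86, and Nnt was above Pgd, and Pgd above G6pdx, in 18 of 18 libraries. G6pdx (1.06) and Rpia (1.03) were lowest, with G6pdx above Rpia in 7 of 18 libraries, and each rested on few counts, 3.01 to 31.6 estimated counts per library for G6pdx and 6.03 to 23.6 for Rpia. Some transcript words of 31 bases also occur in other genes, 19.28% of those of Pgls (Niban3), 13.75% of Taldo1 (Gm17823, Ric8a and Fcsk) and 7.2% of G6pdx (G6pd2, Cts8 and Mapre1), so that the split of reads is less certain for these genes, while Nadk and H6pd shared none.

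**Figure D1:**
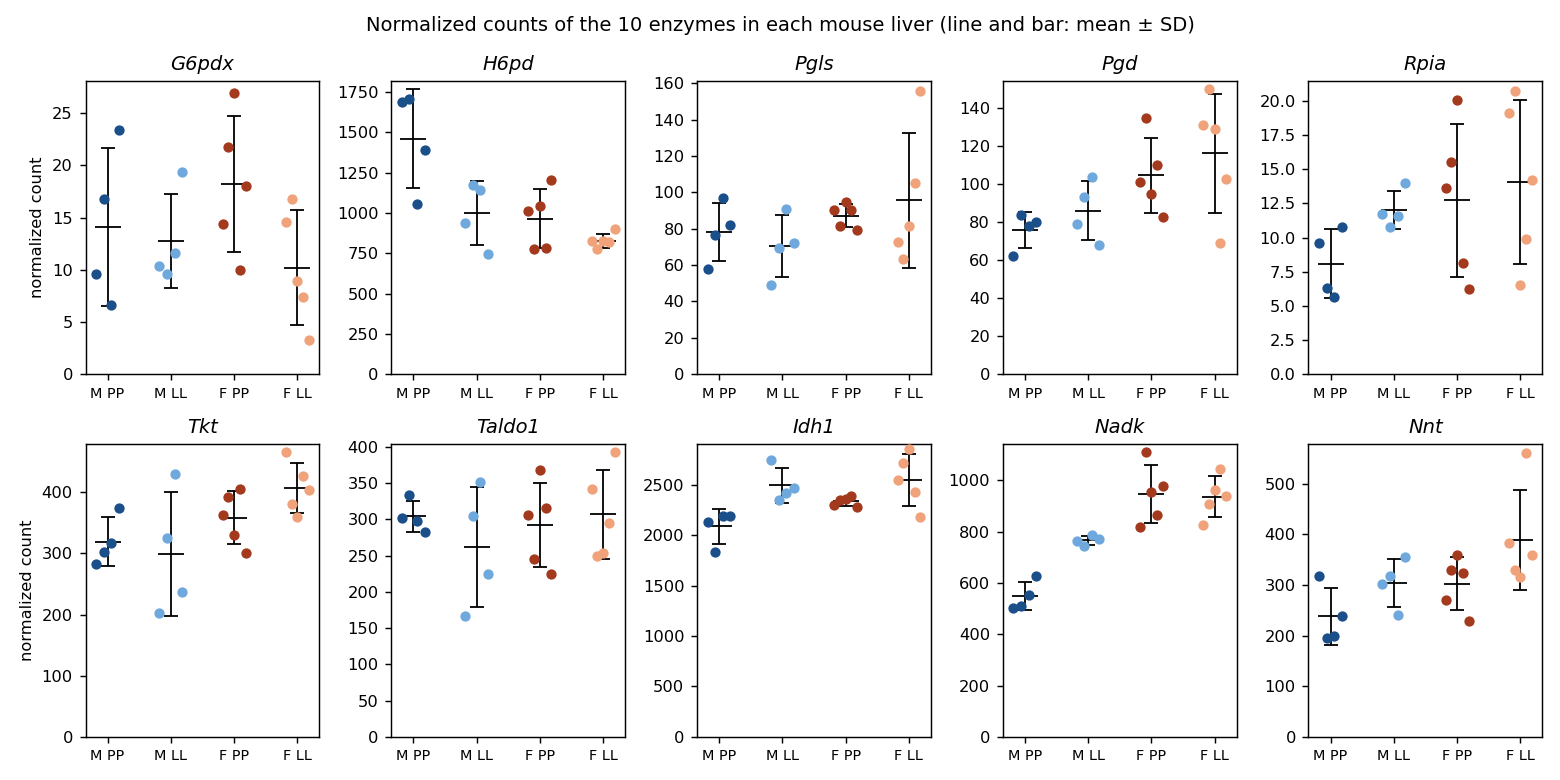
Normalized counts (y axis, from 0, a scale of its own for each enzyme) of the 10 enzymes in each liver, by group (x axis, M male and F female). Points are mice and the line and bar are the mean ± SD (n = 4, 4, 5 and 5). Nadk is lowest in the 4 male PP livers and the male LL livers lie between them and the females, whereas the mean of H6pd is highest in male PP.

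Among males, the leucine form was accompanied by more Nadk transcript. Nadk, which phosphorylates NAD to make NADP in the cytosol, lies on chromosome 4 at 155646806-155675465 of GRCm39, plus strand. Normalized counts were 504, 512, 554 and 627 in the male PP livers and 763, 745, 787 and 774 in the male LL livers. The highest male PP liver was below the lowest male LL liver. DESeq2 gave a log2 fold change of 0.48 ± 0.11 (SE) with an adjusted p of 0.00441. Among females, PP livers held 819, 1112, 953, 866 and 979 and LL livers 826, 908, 964, 1046 and 940, and the ranges covered each other (log2 fold change -0.01 ± 0.10, adjusted p = 0.969). The difference between the male and the female genotype effect, tested as an interaction, was -0.49 ± 0.15 (unadjusted p = 0.00085, adjusted p = 0.0803) and was not called. A call here means an adjusted p below 0.05 with a fold of at least 1.3 or at most 0.7, and for the interaction an adjusted p below 0.05 alone. Of all genes tested, 0.119% were called for the interaction and 5.67% had an unadjusted p below 0.05, and among the 10 enzymes these numbers were 0 and 1 (Nadk).

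The call of Nadk in males held in 25 of 30 alternative settings. It was lost with edgeR (adjusted p = 0.214), with an offset for transcript length (log2 fold change 0.30, adjusted p = 0.731), in TPM with limma (adjusted p = 0.155), without male PP replicate 1 (adjusted p = 0.0741) and without male PP replicate 2 (adjusted p = 0.107), each time with the same sign. On the TPM scale the median of all tested genes itself differed by 0.21 (log2) between male LL and male PP, by -0.08 between female LL and female PP, by 0.50 between female PP and male PP and by 0.20 between female LL and male LL, so differences in TPM are given relative to these medians. The Nadk difference in males was then 0.47.

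The windows around the annotated starts of Nadk and H6pd, 300 bases each from RefSeq on GRCm38.p6, are shown because these are the enzymes that were called. Both lie on chromosome 4. RefSeq gives Nadk a start at 4:155562131-155562430 (plus strand), at which Nadk-201 begins, and a second at 4:155563565-155563864 (plus strand), at which Nadk-203 and Nadk-207 begin, and H6pd one at 4:150003187-150003486 (minus strand). No annotated H6pd transcript begins in that last window, so it is not shown to be the start used by H6pd-202, which carried 99.12% of H6pd counts. Capitals mark CCAAT boxes (CCAAT), GC boxes (GGGCGG) and E-boxes (CACGTG), searched on both strands, and positions are counted from 1 at the 5′ end of the window.
Nadk first start: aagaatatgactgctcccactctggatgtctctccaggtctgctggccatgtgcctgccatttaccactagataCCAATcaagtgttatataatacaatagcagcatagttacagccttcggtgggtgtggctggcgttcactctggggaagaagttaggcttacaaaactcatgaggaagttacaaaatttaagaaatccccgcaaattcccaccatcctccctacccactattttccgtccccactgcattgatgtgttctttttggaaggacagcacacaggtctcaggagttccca
Nadk second start: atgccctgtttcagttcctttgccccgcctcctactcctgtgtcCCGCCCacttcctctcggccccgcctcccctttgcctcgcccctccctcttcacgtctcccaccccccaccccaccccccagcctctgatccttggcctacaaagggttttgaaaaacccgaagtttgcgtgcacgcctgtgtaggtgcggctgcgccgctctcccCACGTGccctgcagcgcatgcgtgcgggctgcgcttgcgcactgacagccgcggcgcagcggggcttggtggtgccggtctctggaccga
H6pd start: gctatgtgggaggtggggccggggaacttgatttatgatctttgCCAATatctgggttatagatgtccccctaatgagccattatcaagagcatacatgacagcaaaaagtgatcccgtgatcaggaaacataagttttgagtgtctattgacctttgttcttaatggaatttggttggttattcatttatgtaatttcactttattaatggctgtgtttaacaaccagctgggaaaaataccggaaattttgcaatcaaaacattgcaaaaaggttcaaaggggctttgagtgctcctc
The first Nadk window held a CCAAT box at position 75 and the second an E-box at 211 and a GC box at 45. The H6pd window held a CCAAT box at 45 and neither of the others. Nadk-203 and Nadk-207, which begin in the second Nadk window, carried only 2.09% and 0.17% of Nadk counts. Nadk-202, with 27.27%, begins in neither Nadk window, so the second is not shown to be a main start in these livers. Of 32851 promoter windows, 37.4% held a CCAAT box, 35.7% a GC box and 7.2% an E-box. An NRF2 type core (TGACNNNGC), a STAT type element (TTCNNNGAA) and a sterol element were also searched and were in none of these 3 windows, against 12.4%, 8.3% and 0.1% of all. The second Nadk window was 67.0% G and C, the first 46.7% and that of H6pd 39.3%.

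A pair of protein-coding transcripts carried nearly all Nadk counts, Nadk-201 with 69.5% and Nadk-202 with 27.3%. They are hard to separate, since 86.6% of the 31-base words of Nadk-201 also occur in Nadk-202 and 94.2% of those of Nadk-202 in Nadk-201. In female PP livers Nadk-201 took 88.3% ± 12.8 (SD, n = 5) of Nadk counts and in female LL livers 49.4% ± 25.6 (n = 5; two-sided exact permutation test p = 0.0159, 0.0635 after Benjamini-Hochberg adjustment over 8 such tests). In males the shares were 73.4% ± 23.5 (n = 4) in PP and 56.4% ± 34.9 (n = 4) in LL (exact permutation p = 0.6). The 8 tests of the adjustment were those of the shares of Nadk-201 and Nadk-202. Shares of other transcripts of the enzymes were tested in the same way and were left out of it, so an adjustment over all of them would be stricter. The summed Nadk level averaged 946 normalized counts in the female PP livers and 937 in the female LL livers. The fragment length implied by the deposited effective lengths was shorter in female LL than in female PP libraries. It was 292 ± 52.1 bases (SD, n = 5) against 448 ± 108 (n = 5; exact permutation p = 0.0159). Fragments themselves were not measured, and the part of fragment length in the split was not tested.

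**Figure D2:**
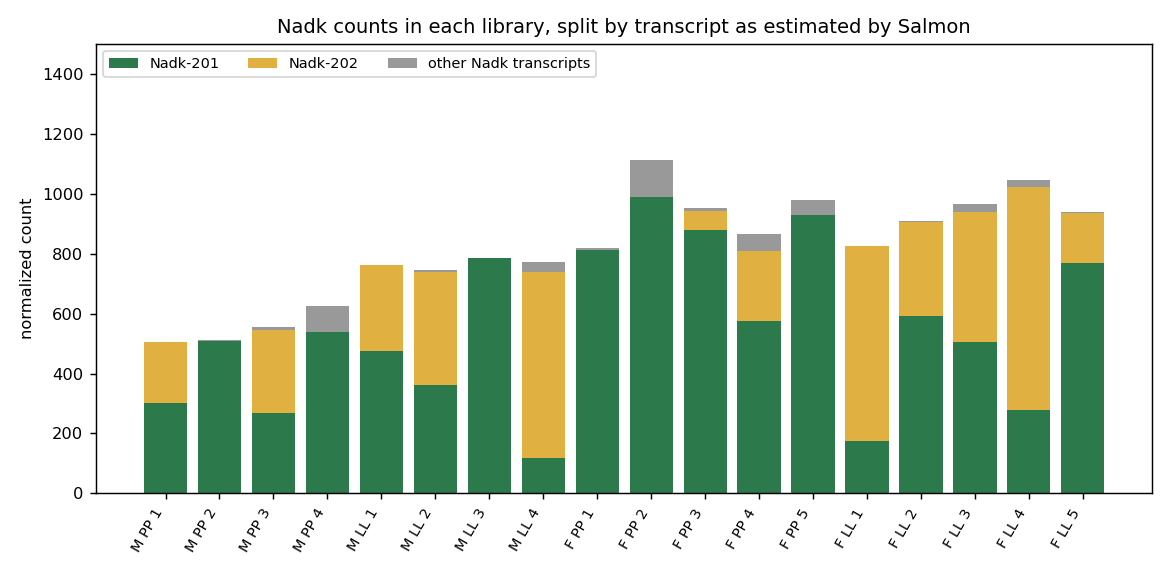
Normalized counts of Nadk (y axis, from 0) in each of the 18 libraries (x axis, M male and F female), stacked by transcript as Salmon divided them. The female bars are of like height in PP and LL, while Nadk-201 takes a mean of 88.3% of the PP bars and 49.4% of the LL bars.

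Between the sexes Nadk was higher in females. The female PP livers, at 819 to 1112 normalized counts, lay above all male PP livers (504 to 627), a difference of 0.78 ± 0.11 on the log2 scale (adjusted p = 1.69e-11 with DESeq2) that was called in 30 of 30 alternatives. In LL mice the female livers were also all above the males, at 826 to 1046 against 745 to 787, but the log2 fold change of 0.29 ± 0.10 did not pass the adjusted threshold (adjusted p = 0.0685).

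H6pd went the other way between the sexes. It encodes the hexose-6-phosphate dehydrogenase of the endoplasmic reticulum, which makes NADPH there for the reduction of glucocorticoids, and lies on chromosome 4 at 150055676-150093559 of GRCm39, minus strand. Normalized counts were 1691, 1707, 1059 and 1390 in male PP and 1013, 776, 1040, 785 and 1204 in female PP livers. The third male PP liver lay inside the female range, and the others above it. The log2 fold change of female PP against male PP was -0.60 ± 0.17 (DESeq2 adjusted p = 0.00841). This call was lost in 5 of 30 alternatives, with the length offset (log2 fold change -0.48, adjusted p = 0.402), without male PP replicate 1 (adjusted p = 0.0672), without male PP replicate 2 (adjusted p = 0.0709), without the mice aged 9 weeks (-0.46, adjusted p = 0.334), and in TPM, where the difference was 0.25 and, relative to the median of all genes, -0.25.

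In the male LL livers H6pd counts were 936, 1173, 1141 and 748, below 3 of the 4 male PP livers (log2 fold change -0.55 ± 0.18, unadjusted p = 0.00204, adjusted p = 0.11), which was not called. It passed in 3 of 30 alternatives, with protein-coding transcripts only (adjusted p = 0.0441), without male PP replicate 3 (0.0198) and without male LL replicate 3 (0.0471). In female LL livers H6pd was 823, 778, 826, 818 and 898 (log2 fold change against female PP -0.22 ± 0.16, adjusted p = 0.549). The mean effect of LL over both sexes was -0.38 ± 0.12 (adjusted p = 0.0524), and the interaction was 0.33 ± 0.24 (adjusted p = 0.713).

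Nadk and H6pd were set side by side after their values were seen, and the pair is given with no test. For every 100 H6pd counts there were 29.9 to 52.3 Nadk counts in male PP livers (median 37.6), 63.5 to 103.4 in male LL (75.2), 80.9 to 143.4 in female PP (91.8) and 100.3 to 127.9 in female LL (116.8). The male PP livers did not overlap any other group, which already held for Nadk alone (504 to 627 normalized counts, against 745 or more in the other groups). The separation of the pair is therefore not a further result.

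**Figure D3:**
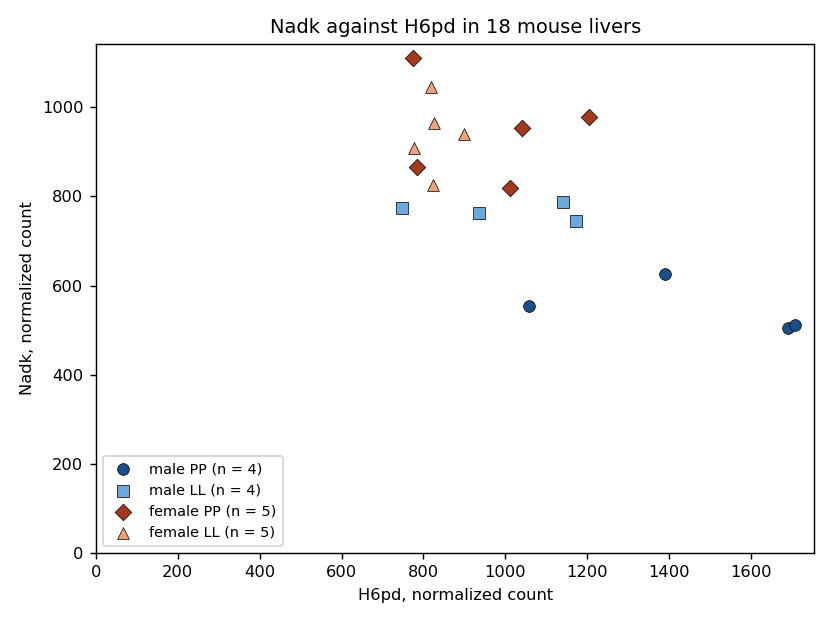
Normalized counts of Nadk (y axis) against H6pd (x axis) in 18 livers, each point a mouse and each symbol a group. The 4 male PP livers lie lowest in Nadk, at 504 to 627, with H6pd at 1059 to 1707.

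In the rest of the oxidative branch no enzyme was called. G6pdx, the cytosolic dehydrogenase that opens the branch, is X-linked (X:73449857-73472819, minus strand, GRCm39). Its counts were 9.58, 16.8, 6.58 and 23.4 in the male PP livers, 10.4, 9.59, 11.6 and 19.4 in the male LL livers, 14.4, 21.8, 26.9, 10 and 18.0 in the female PP livers and 14.6, 16.8, 8.9, 7.4 and 3.29 in the female LL livers. The lowest female LL liver lay below all others, and the groups overlapped (log2 fold change of female LL against female PP -0.82 ± 0.41, unadjusted p = 0.0438, with no adjusted p because DESeq2 left genes this low out of the adjustment). Pgls, the lactonase (8:72044202-72053768), ranged from 49.2 to 156 normalized counts with log2 fold changes of -0.15 to 0.42. Pgd, the second NADPH-making step (4:149233246-149251228), averaged 76.1 in male PP and 105 in female PP (log2 fold change 0.45 ± 0.21, adjusted p = 0.229) and, with the leucine form, 86.3 for males and 117 for females (0.44 ± 0.21, adjusted p = 0.21). Neither was called, and without female LL replicate 4 the latter was (0.57, DESeq2 adjusted p = 0.05).

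In the non-oxidative branch no enzyme was called either. Rpia, the ribose phosphate isomerase (6:70742704-70769216), averaged 8.08 normalized counts in the male PP livers and 12.0 in the male LL livers, with 12.7 for female PP and 14.1 for female LL. Tkt, transketolase (14:30270156-30299612), held 203, 326, 430 and 237 in male LL and 466, 381, 360, 426 and 403 in female LL livers, ranges that overlap (log2 fold change 0.44 ± 0.18, unadjusted p = 0.0137, adjusted p = 0.119). Without male LL replicate 3 it was called (0.67, DESeq2 adjusted p = 0.00166), as in TPM with limma (adjusted p = 0.0177). With protein-coding transcripts only, Tkt moved to 2.32 here (adjusted p = 0.218) and, in male LL against male PP, from -0.09 to -2.24. Most Tkt counts, 69.6%, were placed on Tkt-209, for which the annotation defines no coding sequence, and 17.0% on the retained-intron transcript Tkt-208, so that gene totals are the firmer value. Taldo1, transaldolase (7:140972053-140982886), differed little, with log2 fold changes from -0.21 to 0.23.

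Idh1, the cytosolic isocitrate dehydrogenase (1:65196781-65225721, minus strand), was the most abundant of the 10. It held 2134, 1833, 2196 and 2196 normalized counts in the male PP livers and 2742, 2350, 2416 and 2470 in the male LL livers, and the groups did not overlap. The difference was small, at a log2 fold change of 0.26 ± 0.09 (unadjusted p = 0.00581, adjusted p = 0.181), and was not called. Female PP livers ranged from 2281 to 2385 and female LL livers from 2184 to 2857 (log2 fold change 0.12 ± 0.08, adjusted p = 0.483). Nnt, the mitochondrial transhydrogenase (13:119470859-119566380, minus strand), held 318, 196, 200 and 239 normalized counts in the male PP livers, 301, 318, 241 and 355 in the male LL livers, 271, 329, 359, 324 and 228 in the female PP livers and 382, 329, 315, 560 and 359 in the female LL livers. LL and PP overlapped in both sexes (log2 fold change in males 0.36 ± 0.21, adjusted p = 0.516, and in females 0.36 ± 0.18, adjusted p = 0.323). The mean effect was 0.36 ± 0.14 (adjusted p = 0.126), and 0.44 without male PP replicate 1 (DESeq2 adjusted p = 0.0443). Of its counts 99.1% were on Nnt-201 and 0 on the longer Nnt-202.

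**Figure D4:**
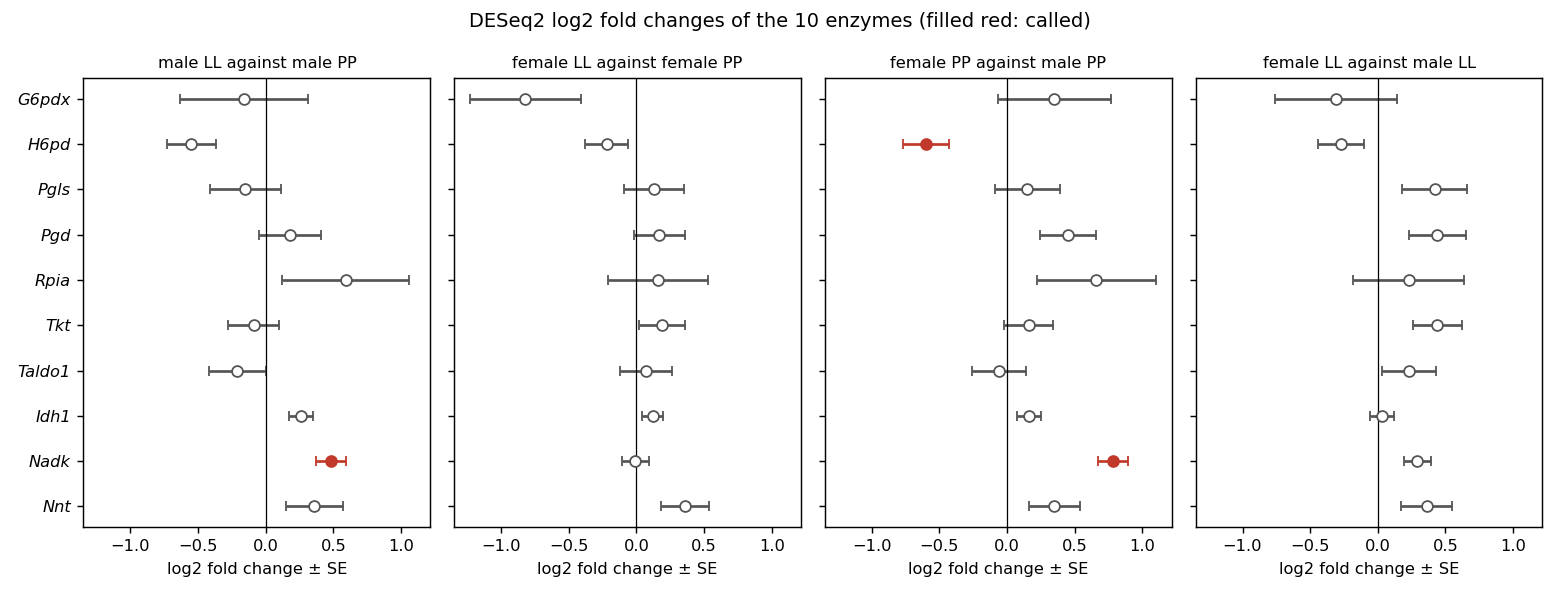
Log2 fold changes ± SE (x axis) of the 10 enzymes (y axis) in 4 comparisons, from DESeq2. Filled red points are called, which are Nadk in male LL against male PP (0.48) and Nadk (0.78) and H6pd (-0.60) in female PP against male PP.

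Across the 10 enzymes, 1 was called in male LL against male PP, where 0.283% of all genes were, and 3 had an unadjusted p below 0.05 (Idh1, H6pd and Nadk), against 7.83% of all genes. G6pdx, Pgls, Pgd and Rpia had no adjusted p there and could not be called, as for all but 3301 of the 10938 genes, and with no independent filtering, where these 4 had one too, Nadk was again the 1 called. In female LL against female PP none was called with DESeq2, against 0.658% of all genes (G6pdx and Rpia had no adjusted p), and 2 had an unadjusted p below 0.05 (Nnt and G6pdx), against 13.0%. In female PP against male PP 2 were called (6.45% of all genes) and 3 had an unadjusted p below 0.05 (Pgd, H6pd and Nadk; 17.5% of all genes). In female LL against male LL none was called with DESeq2 (6.12% of all genes) and 3 had an unadjusted p below 0.05 (Tkt, Pgd and Nadk; 20.0%). For the mean effect of LL none was called with DESeq2 (0.978% of all genes) and 4 had an unadjusted p below 0.05 (Nnt, Idh1, H6pd and Nadk; 13.8%). Groups without overlap were seen for 2 enzymes in male LL against male PP (Idh1 and Nadk; 4.07% of all genes) and 0 in female LL against female PP (2.66%). There were 2 in female PP against male PP (Idh1, which was not called, and Nadk; 9.74%) and 1 in female LL against male LL (Nadk; 8.16%). The median log2 fold change of the 10 was 0.04, 0.13, 0.25 and 0.26 in these 4 comparisons, beside medians of all genes of 0.00, 0.01, 0.00 and 0.01.

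Of 26 other genes of the pathway and of NADPH supply, 18 were tested, and Me1 and Idh2 were those called. Me1, the cytosolic malic enzyme, held 519 ± 105 normalized counts (SD, n = 4) in the male PP livers and 1050 ± 366 (n = 4) in the male LL livers (log2 fold change 1.02 ± 0.29, DESeq2 adjusted p = 0.047), a call lost in 15 of 30 alternatives, among them without any 1 of the male PP livers, of male LL replicates 1, 2 and 3 or of female PP replicate 5, where leaving out 1 library gave 0.82 to 1.22. It held 918 ± 176 (n = 5) in female PP (log2 fold change against male PP 0.82 ± 0.27, adjusted p = 0.0389), a call lost in 13 of 30, among them without female PP replicates 1 to 4 or male PP replicates 2 to 4 in turn (0.73 to 0.96). In female LL, Me1 held 1109 ± 418 (n = 5) and was not called (log2 fold change against female PP 0.27 ± 0.26, DESeq2 adjusted p = 0.659). Its interaction, -0.74 ± 0.38, was not called either (DESeq2 adjusted p = 0.502). The mean LL effect on Me1, which averages the male and female effects, was 0.65 ± 0.19 (adjusted p = 0.0435), lost in 17 of 29. Idh2, the mitochondrial isocitrate dehydrogenase, held 293 ± 41.5 (n = 4) in male PP and 436 ± 80.3 (n = 5) in female PP (log2 fold change 0.57 ± 0.19, DESeq2 adjusted p = 0.0399, lost in 12 of 30, among them without female PP replicates 2 to 4 or male PP replicates 1 to 3 in turn, at 0.46 to 0.65). It held 285 ± 47.4 (n = 4) in male LL and 475 ± 124 (n = 5) in female LL (log2 fold change 0.74 ± 0.19, adjusted p = 0.00372, called in 30 of 30 alternatives).

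Of 23 genes listed for enzymes that use NADPH or belong to pathways that use it, 21 were tested. The counts below are therefore not limited to enzymes that take NADPH themselves. In male LL against male PP 1 was called, Scd1, the stearoyl-CoA desaturase, at 12786 ± 4229 normalized counts (SD, n = 4) in PP and 35514 ± 3429 (n = 4) in LL (log2 fold change 1.47 ± 0.35, DESeq2 adjusted p = 0.00446). That call was lost in 10 of 30 alternatives, among them without male PP replicate 1, 2 or 4, male LL replicate 1, 2 or 4 or female PP replicate 5 (1.37 to 1.72). The interaction for Scd1 was -1.66 ± 0.46 (adjusted p = 0.0459) and was kept in 5 of 29 alternatives. In female PP against male PP 9 of the 21 were called, beside 6.45% of all genes. The list was written with earlier results of these data known, so such shares are a description and not a test. The 7 higher were Fasn, the fatty acid synthase (log2 fold change 1.88 ± 0.20), Elovl6 (1.29), Scd1 (1.23), Acaca (1.06), Cbr1 (0.82), Nqo1 (0.77) and Sc5d (0.63), and the 2 lower were Srd5a1 (-0.92 ± 0.30), a steroid reductase, and Nox4 (-1.79 ± 0.34), an NADPH oxidase. Of these calls, Nqo1 was lost in 13 of 30 alternatives, among them without female PP replicate 2, 4 or 5, male PP replicate 1, 2 or 4 or female LL replicate 2 (0.59 to 0.92). Srd5a1 was also lost in 13 of 30, among them without the same female PP or male PP replicates (-1.17 to -0.71). Scd1 was lost in 5, without female PP replicate 4, male PP replicate 1, 2 or 4 (1.11 to 1.48) or the mice aged 9 weeks, and Sc5d and Nox4 in 1 each. In female LL against male LL Fasn (1.24), Nqo1 (0.78) and Hsd11b1 (0.54) were higher and Srd5a1 and Nox4 lower (-1.28 ± 0.30 and -1.60 ± 0.34), 5 of 21 beside 6.12% of all genes. Nqo1 was lost in 12 of 30, among them without female LL replicate 2, 3 or 5 or any 1 of the male LL livers (0.67 to 0.85), and Hsd11b1 in 11 of 30, among them without female LL replicate 2, 3 or 4 or male LL replicate 1, 3 or 4 (0.40 to 0.62). Srd5a1 was lost in 1, and Nox4 turned to 5.29 with protein-coding transcripts only.

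Within groups, the enzymes most alike across the 18 libraries were Tkt and Taldo1 (Pearson r = 0.67 of deviations from group means, a description, since the libraries share depth and composition). Of all genes above the level filter, Cds2 (r = 0.75), Akr1c19 (0.74) and Cyp3a59 (0.73) were most like Nadk, and Scp2 (0.82), Tmem97 (0.82) and Mtmr10 (0.79) most like H6pd, over 5645 genes and 18 libraries. Summed cell type markers with an unadjusted p below 0.05 are given for the comparisons in which Nadk and H6pd were called and for the female genotype, with 0.0907 as the lowest p after adjustment. Cholangiocyte markers were 74.7 to 118 normalized counts in the male PP livers and 54.4 to 73.1 in the male LL livers (exact permutation p = 0.0286). Markers of Kupffer cells and macrophages were 903 to 1104 in the female PP livers and 529 to 869 in the female LL livers (exact permutation p = 0.00794), where mitochondrial transcripts took 10.2% ± 1.11 (SD, n = 5) and 12.5% ± 1.34 (n = 5) of counts (exact permutation p = 0.0317). The summed endothelial markers were 259 to 426 normalized counts in male PP and 478 to 956 in female PP, and those of stellate cells and fibroblasts 384 to 803 and 1019 to 1226 (exact permutation p = 0.0159 for both, the smallest 4 against 5 mice allow). Red cell markers were 1982 to 5889 in male PP and 1282 to 2275 in female PP (exact permutation p = 0.0317). Exocrine pancreas markers were at 0 in male PP and 0.694 to 4.55 in female PP (exact permutation p = 0.0159). Hepatocyte markers were 520276 to 626322 in male PP, 812144 to 922076 in female PP and 686663 to 817732 in female LL. Female PP differed from each of the other 2 groups (exact permutation p = 0.0159 for both). The adipocyte markers Adipoq and Lep were at 0 in all libraries. The part of these markers in the differences of Nadk and H6pd was not tested.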

How the data were processed

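Liver RNA of 18 mice was sequenced by the study. Per the labels, the authors quantified untrimmed reads with Salmon 1.4.0 (FastQC for quality) against GRCm39 transcripts, and deposited estimated counts and TPM per transcript; the deposited TPM values are scaled per library by the authors. Fragment length was inferred from the deposited effective lengths, as the median of length less effective length over transcripts of at least 3000 bases. Of 139225 transcripts, 137570 were joined to genes with GENCODE M39 and 1655 were left out. Estimated counts were summed per gene and rounded, and genes with at least 10 in at least 4 libraries were kept (10938).

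One DESeq2 1.42.0 fit over all 18 libraries (R 4.3.3), with a mean for each group, gave all comparisons. Adjusted p-values covered the genes that DESeq2's independent filtering kept, 3301 of 10938 in male LL against male PP, 8598 in female LL against female PP, 10930 in each sex comparison, 1606 for the interaction and 7541 for the mean effect. An enzyme was called with an adjusted p below 0.05 and a fold of at least 1.3 or at most 0.7. Alternatives were edgeR 4.0.16, TMM factors, no count filter, no independent filtering, a transcript length offset, protein-coding transcripts, age or fragment length as terms, the 2 groups alone, limma 3.58.1 on log2(TPM + 1), each library left out, and, chosen after seeing the data, no mice aged 9 weeks. Depth was 3794671 to 6613905 estimated counts, and no pair of libraries of a group agreed within sampling noise (chi-square per degree of freedom 11.8 to 96.8). The enzymes, gene lists and named genes, the members plus the called genes of both lists, were chosen with earlier results of these data known.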

Additional observations from a re-analysis of the deposited data

Results flagged for a closer look

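Dixon's test for a sample far from the others was applied to each enzyme in each group, 40 groups in all, of which chance would mark about 1 in 20. It marked 2. In male PP replicate 2, Idh1 was at 1833 normalized counts, below the other 3 livers of its group at 2134 to 2196 (ratio of gap to range 0.831). In female LL replicate 4, Nnt was at 560, above the other 4 at 315 to 382 (ratio 0.727).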

How the results depend on the processing

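Of 2242 recomputed values of single genes, 2000 kept their direction and side of the threshold, 157 lost a call, 12 gained one and 73 changed sign. Only genes called in the main fit could lose a call, so the 157 are not a share of all 2242. Values never called, also those with no adjusted p, counted as kept unless they gained a call or changed sign. For male LL against male PP, 0 of the enzymes were called with edgeR, the length offset or limma on TPM, and 2 with protein-coding transcripts only, and leaving out 1 library gave 0 to 2. For female PP against male PP, 1 was called with the length offset, 1 without the mice aged 9 weeks and 7 with limma on TPM, where the median of all genes was itself 0.50 higher, and leaving out 1 library gave 1 to 2. For female LL against male LL, 1 was called with limma on TPM, and leaving out 1 library gave 0 to 1. For the mean LL effect, leaving out 1 library gave 0 to 1. The causes were not tested.

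Over all genes, calls in male LL against male PP numbered 31, and 3 with edgeR and 53 with the length offset. In female LL against female PP they numbered 72, and 3 with edgeR, 28 with the offset, 14 with fragment length as a term and 0 with limma. In female PP against male PP, limma on TPM gave 4344 against 705. In the interaction and the mean effect, edgeR gave 0 and 9 against 13 and 107. Leaving out 1 library gave 20 (without male PP replicate 2) to 60 (without male LL replicate 4) in males, 28 (without female PP replicate 5) to 270 (without female PP replicate 4) in females, 3 to 27 for the interaction and 69 to 179 for the mean effect, and leaving out the mice aged 9 weeks gave 16 in females, 387 in female PP against male PP and 52 for the mean effect. With fragment length as a term 432 against 669 were called in female LL against male LL.

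Deviations of same-numbered mice correlated weakly (17 pairs, correlations -0.17 to 0.16, 3 over 0.1). The best match had the same number for 0 of 8 male and 5 of 10 female libraries. Pairing by number was thus not shown, and in females these values cannot decide it. With the replicate block the enzymes called numbered 1, 0, 2 and 0 in the 4 comparisons, and genes called in male LL against male PP 34. 

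Values that changed sign, as log2 fold changes under the named setting, grouped by comparison (genotype, LL against PP, or sex, female against male), were as follows. The TPM values are as fitted, before the median of all genes is taken off. With it taken off, 8 of the 17 in the 4 comparisons had the sign of the main values, among them H6pd in both sex comparisons (-0.25 and -0.05), and 9 did not. Transcript length offset, male genotype G6pdx 0.27 and Pgd -0.03 and Rpe -0.30, female genotype Pgls -0.28 and Pgd -0.05 and Taldo1 -0.14 and Idh1 -0.04 and Rpe -0.37 and Me1 -0.07, PP sex Tkt -0.21 and Taldo1 0.04, LL sex Idh1 -0.19 and Rpe -0.34 and Me1 -0.06. Protein-coding transcripts only, male genotype Rpe -0.01 and Idh2 0.00, female genotype Tkt -0.36 and Nadk 0.02, PP sex Rpe 0.02, LL sex Nox4 5.29. Fragment length as a term, male genotype G6pdx 0.21 and Rpe -0.01, female genotype Nadk 0.02 and Idh2 -0.05, LL sex G6pdx 0.13 and Rpe -0.03. Limma on log2(TPM + 1), male genotype G6pdx 0.31 and Pgls 0.03 and Tkt 0.10 and Taldo1 0.02 and Idh2 0.16, female genotype Pgls -0.40 and Pgd -0.16 and Rpia 0.00 and Taldo1 -0.19 and Idh1 -0.13 and Rpe -0.45 and Me1 -0.19, PP sex H6pd 0.25 and Taldo1 0.75 and Rpe 0.46, LL sex H6pd 0.15 and Rpe -0.01, interaction H6pd -0.10. Age as a term, female genotype Pgls -0.05, LL sex Rpe -0.07 and Me1 -0.05. Without the 9-week mice, female genotype Nadk 0.01. edgeR quasi-likelihood test with TMM, LL sex Rpe 0.00. No filter on low counts, LL sex Rpe 0.00. Ranges over the libraries left out in turn that crossed 0 were, for the male genotype comparison, Rpe -0.04 to 0.15, G6pdx -0.44 to 0.22, Idh2 -0.13 to 0.06, Tkt -0.32 to 0.05, for the female genotype comparison, Nadk -0.06 to 0.05, Rpia -0.03 to 0.39, Taldo1 -0.03 to 0.17, Pgls -0.12 to 0.24, for the PP sex comparison, Taldo1 -0.16 to 0.02, for the LL sex comparison, Rpe -0.12 to 0.07, Me1 -0.12 to 0.28, Idh1 -0.01 to 0.08.

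The depth limits G6pdx and Rpia most, with means of 14.8 and 12.2 estimated counts per library.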
